A study of Homo sapiens with 6 samples.

Results

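Keratins and claudins were followed in Hs578T cells after transfection with an siRNA against CSRP2. Members were chosen by symbol in the array's probe-to-gene table, as KRT or CLDN followed by a digit, with keratin-associated proteins, pseudogenes and antisense genes left out. Of 80 probe sets whose symbol matched, 7 named pseudogenes and 1 an antisense gene, and the remaining 72 named 71 genes, 47 keratins and 24 claudins, of 14884 genes in all. KRT18 alone had more than 1 probe set, and the one with the highest mean stood for it. RefSeq lists 79 protein-coding genes with such symbols, and the other 8 (KRT17, KRT222, KRT34, KRT6A, KRT6B, KRT81, KRT82 and KRT86) were not analysed here.

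Keratins are the intermediate filament proteins of epithelial cells. A filament is built from pairs of a type I and a type II keratin, and the pair in use marks the epithelium: KRT8 with KRT18 in simple and luminal epithelium, KRT5 with KRT14 in the basal layer, and others in differentiated skin and hair. Claudins span the membrane at tight junctions, where some seal the space between cells and others form channels for ions or water. Breast tumours of mesenchymal type are known for low CLDN3, CLDN4 and CLDN7, and such tumours and lines are called claudin-low.

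Hs578T is a widely used human breast cancer cell line with mesenchymal traits. The culture medium was DMEM that held 10% serum and insulin at 0.01 mg/ml, and cells received either a non-targeting siRNA (siControl, 3 arrays) or a CSRP2 siRNA (siCSRP2, 3 arrays) by lipid transfection, and the groups differed in nothing else that the labels state. CSRP2 encodes a LIM domain protein that binds actin filaments. At 24 h, 100000 cells per well were replated, RNA was taken after a further 48 h, and each HuGene 2.0 array gave 1 log2 value per probe set. No label says whether the 3 replicates of a group were grown as separate cultures, and the p-values take in only array-to-array spread, whose source may be technical.

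The siRNA target did not check the labels. CSRP2 read 3.69, 4.01 and 4.35 in siControl and 3.25, 3.76 and 4.26 in siCSRP2, with overlapping groups (log2 difference -0.26, SE 0.26, limma adjusted p = 0.583). It was lower in 3 of 3 pairs of equal number and did not pass with the replicate block either (SE 0.12, adjusted p = 0.188). Leaving out 1 array moved the difference between -0.51 (without siCSRP2 3) and -0.0051 (without siCSRP2 1), so siCSRP2 below means the arrays labelled siCSRP2. Array medians ran from 2.70 to 2.76 in siControl and from 2.80 to 2.82 in siCSRP2. All 6 markers fixed for a mesenchymal breast line (VIM, FN1, AXL, SNAI2, ZEB1 and THY1) lay above the median gene level of 2.99. So did 3 of 4 measured simple epithelial markers, KRT18, KRT8 and EPCAM (7.74, 3.69 and 3.28), while KRT19 lay below. Of basal markers 1 of 3 measured, and of keratinocyte markers 1 of 4, also lay above. A level above the median is thus not particular to the mesenchymal list. The leukocyte marker CD14 and the endothelial markers PECAM1 and VWF lay below it, at 2.64, 2.53 and 2.57, and PTPRC, CD3E and CDH5 were not analysed here.

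Most members gave a signal in the lower part of the scale. 10 of 47 keratins and 6 of 24 claudins had a mean over the 6 arrays above the median of all genes, 2.99. The keratins above it were KRT18 at 7.74, KRT14 at 3.92, KRT10 at 3.76, KRT8 at 3.69, KRT80 at 3.28, KRT38 at 3.23, KRT16 at 3.08, KRT75 at 3.07, KRT20 at 3.02 and KRT26 at 3.02. The claudins were CLDN1 at 4.99, CLDN3 at 3.99, CLDN12 at 3.60, CLDN25 at 3.26, CLDN2 at 3.14 and CLDN15 at 3.02. The other 37 keratins and 18 claudins lay between 2.07 (KRT73) and 2.96 (CLDN19). These values order the signals of probe sets and not the amounts of transcript, because probe sets bind with different strength and no detection calls were at hand.

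Few members differed between siCSRP2 and siControl by the test over all genes. Of 47 keratins 1 rose, KRT26, and 46 did not pass. None of the 24 claudins passed in limma's fit, with 2 of them (CLDN3 and CLDN22) at an unadjusted p under 0.05. Over all 14884 genes 7.34% were called, 0.8% higher and 6.54% lower, and of members 1.41%. These shares differ by level, and most members are dim. Below the median level 0.605% of all genes and 0% of 55 members were called. Above it the shares were 14.1% of all genes and 6.25% of 16 members. With the replicate number as a block, KRT26 rose and KRT18 fell, 2.82% of members against 15.8% of all genes. Above the median level these shares were 12.5% and 29.7%. The groups did not overlap for 19 members, 26.8%, beside 27.7% of all genes. Of these, 17 were higher in siCSRP2 (12 keratins and 5 claudins) and 2 were lower (KRT18 and CLDN5), where all genes had 11.5% higher and 16.2% lower. Dim genes as a whole leaned the same way. Of 7442 genes below the median level 1131 were higher and 343 lower, and of the 55 members below it 14 were higher and 1 lower.

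**Figure D1:**
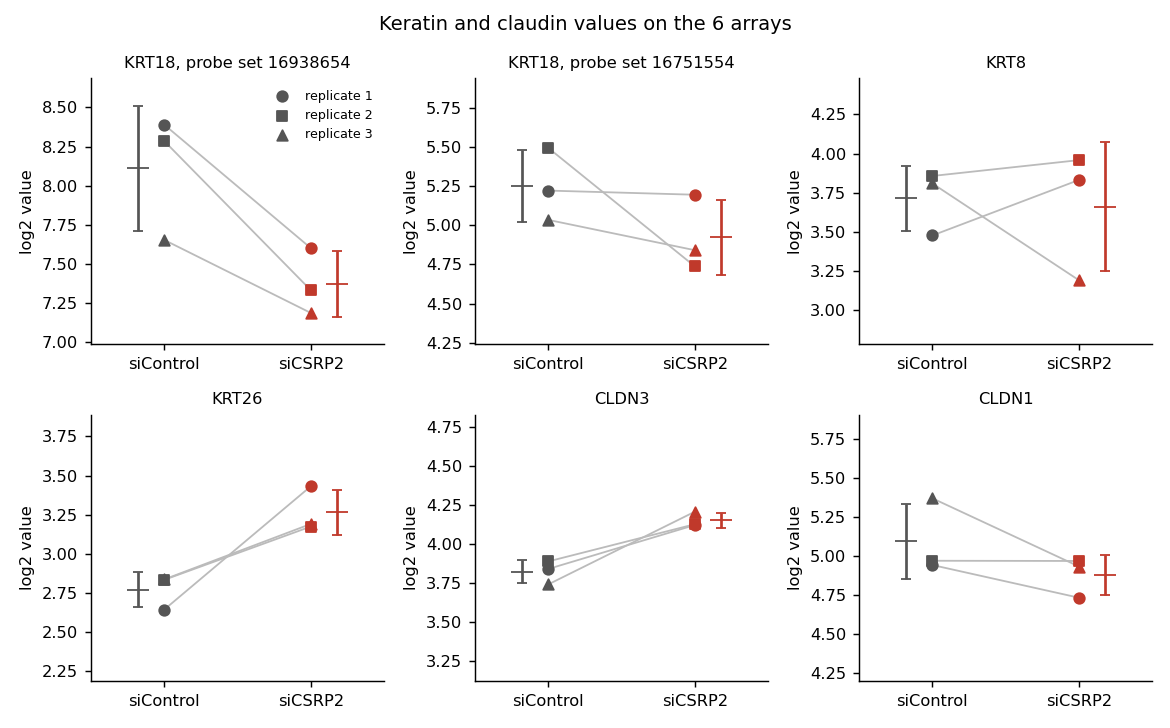
Log2 values of both KRT18 probe sets, KRT8, KRT26, CLDN3 and CLDN1 on each array, with lines joining arrays of equal replicate number and bars for the group mean ± SD (n = 3). All panels span the same height on the log2 scale; the groups are apart for KRT18 (probe set 16938654), KRT26 and CLDN3 and overlap in the other panels.

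Among the simple epithelial keratins, KRT18 had lower values in siCSRP2, a difference that passed with the replicate block and not without it, and the values of its partner KRT8 overlapped between groups. KRT18, the type I keratin of luminal epithelium, measured 8.39, 8.29 and 7.65 on siControl arrays and 7.60, 7.33 and 7.19 on siCSRP2 arrays. Every siCSRP2 value lay below every siControl value, with siControl 3 only just above siCSRP2 1, and KRT18 was lower in 3 of 3 pairs of equal number. The mean went from 8.11 ± 0.40 to 7.37 ± 0.21 (SD, n = 3), a log2 difference of -0.74 (SE 0.20, 95% interval -1.20 to -0.28), or 1.67-fold. This did not pass over all genes (limma adjusted p = 0.0635) and passed with the replicate block (adjusted p = 0.00746). An exact two-sided permutation test gave p = 0.1, the smallest that 3 against 3 can give. Without siControl 3 the difference was -0.97 and passed (limma adjusted p = 0.00269). On leaving out any other 1 array it did not pass, at limma adjusted p of 0.0666 to 0.232. The differences in those fits ran from -0.85 to -0.60.

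The 2 probe sets annotated to KRT18 gave differences of -0.74 and -0.33, with 95% intervals that overlapped (-1.20 to -0.28 and -0.70 to 0.04). The probe set used above, 16938654, is annotated to KRT18, yet its number falls between those of CMTM8 and CMTM7, and RefSeq places the pseudogene KRT18P15 between the starts of those genes. Numbers on this array go by chromosome, as 99.2% of named probe sets have a gene of their own chromosome as a neighbour in number. For 16938654, taken as KRT18, neither neighbour is on its chromosome. Whether numbers follow position within a chromosome was not tested. The other probe set, 16751554, falls between KRT7 and EIF4B, where RefSeq places KRT18 itself. It measured 5.22, 5.50 and 5.04 on siControl arrays and 5.20, 4.74 and 4.84 on siCSRP2 arrays, so the groups overlapped. Its difference was -0.33 (SE 0.16, 95% interval -0.70 to 0.04), or 1.25-fold, and did not pass in a fit over all named probe sets (limma adjusted p = 0.275, and 0.212 with the block). RefSeq names 68 KRT18 pseudogenes, and which KRT18 copies either probe set binds was not tested.

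The 2 probe sets were also set against each other within each array. Signal of 16938654 over 16751554 was 3.17, 2.79 and 2.62 (log2) on siControl arrays and 2.40, 2.59 and 2.34 on siCSRP2 arrays, lower in every siCSRP2 array (difference -0.41, exact two-sided p = 0.1, adjusted over 3 such ratios 0.3). At 3 arrays against 3 the test cannot go below 0.1, so it could not settle whether the 2 probe sets changed differently.

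KRT8, the type II partner of KRT18, measured 3.48, 3.86 and 3.81 on siControl arrays and 3.83, 3.96 and 3.19 on siCSRP2 arrays. Its highest and its lowest value were both on siCSRP2 arrays, and the log2 difference was -0.05 with a wide interval of -0.52 to 0.41 (limma adjusted p = 0.899). The sign of that difference turned under quantile normalization (0.02), cyclic loess (0.04) and array weights (0.08). The within-array ratio of KRT18, by probe set 16938654, to KRT8 was 4.92, 4.43 and 3.84 (log2) in siControl and 3.77, 3.37 and 4.0 in siCSRP2. The other KRT18 probe set, 16751554, was not set against KRT8. Groups of the ratio overlapped (difference -0.68, exact two-sided p = 0.2, adjusted over 3 ratios 0.3). With 3 arrays against 3 this test cannot go below 0.1, so it could not have passed. KRT19, another simple epithelial type I keratin, measured 2.40 ± 0.12 and 2.59 ± 0.08 (SD, n = 3), and KRT7, common in ductal epithelium, measured 2.10 ± 0.08 and 2.15 ± 0.45, with siCSRP2 3 at 2.67 above the other 5 arrays. KRT20, of the gut and bladder lining, measured 2.94 ± 0.18 and 3.10 ± 0.09. None of these 3 passed the test.

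None of the 5 basal and activated keratins of stratified epithelium passed. KRT5, the basal type II keratin, measured 2.53, 2.70 and 2.60 on siControl arrays and 2.85, 2.81 and 3.21 on siCSRP2 arrays. The groups did not overlap, with siCSRP2 3 standing above the rest, and the difference of 0.34 (SE 0.13) did not pass (limma adjusted p = 0.159). Its partner KRT14 gave 3.89 ± 0.10 and 3.96 ± 0.11 (SD, n = 3). KRT16, induced in wounded and hyperproliferative skin, was at 3.21 ± 0.22 and 2.95 ± 0.14, and KRT15 and KRT6C differed by 0.19 and 0.10. Of the 15 keratins of differentiated or site-specific epithelium none passed either, and 14 of them had a difference above 0, up to 0.28 for KRT12, the keratin of the cornea. KRT10, of suprabasal skin, was at 3.72 ± 0.08 and 3.80 ± 0.17, and KRT80 at 3.29 ± 0.10 and 3.27 ± 0.17.

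KRT26, a type I keratin of the inner root sheath of the hair follicle, was the member that rose. It measured 2.64, 2.83 and 2.84 on siControl arrays and 3.43, 3.17 and 3.19 on siCSRP2 arrays. Each siCSRP2 value exceeded each siControl value, and KRT26 was higher in 3 of 3 pairs. The mean went from 2.77 ± 0.11 to 3.27 ± 0.14 (SD, n = 3), 1.41-fold, with a log2 difference of 0.50 (SE 0.12, 95% interval 0.22 to 0.77, limma adjusted p = 0.0443). The level lies near the median of all genes, 2.99, and the call was lost under quantile normalization (adjusted p = 0.0592), median centring (0.0638), cyclic loess (0.0645) and the block after quantile normalization (0.052). It was also lost on leaving out any 1 array except siControl 3, at adjusted p of 0.0903 to 0.173, while the difference stayed between 0.41 and 0.54.

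No other hair follicle keratin passed on the deposited values, with or without the replicate block, unless arrays were weighted. KRT75, of the companion layer, measured 3.55, 3.25 and 2.97 on siControl arrays and 3.11, 2.80 and 2.75 on siCSRP2 arrays. It was lower in 3 of 3 pairs although the groups overlapped, with a difference of -0.37 (SE 0.17, limma adjusted p = 0.225, and 0.0591 with the block). It passed with array weights (-0.49, 0.0449) and with the block after quantile normalization (-0.41, 0.044). KRT74 and KRT27, both of the inner root sheath, differed by 0.27 and -0.28. The 13 hair shaft keratins ran from -0.10 (KRT32) to 0.26 (KRT38), with 11 above 0 and none past the test.

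**Figure D2:**
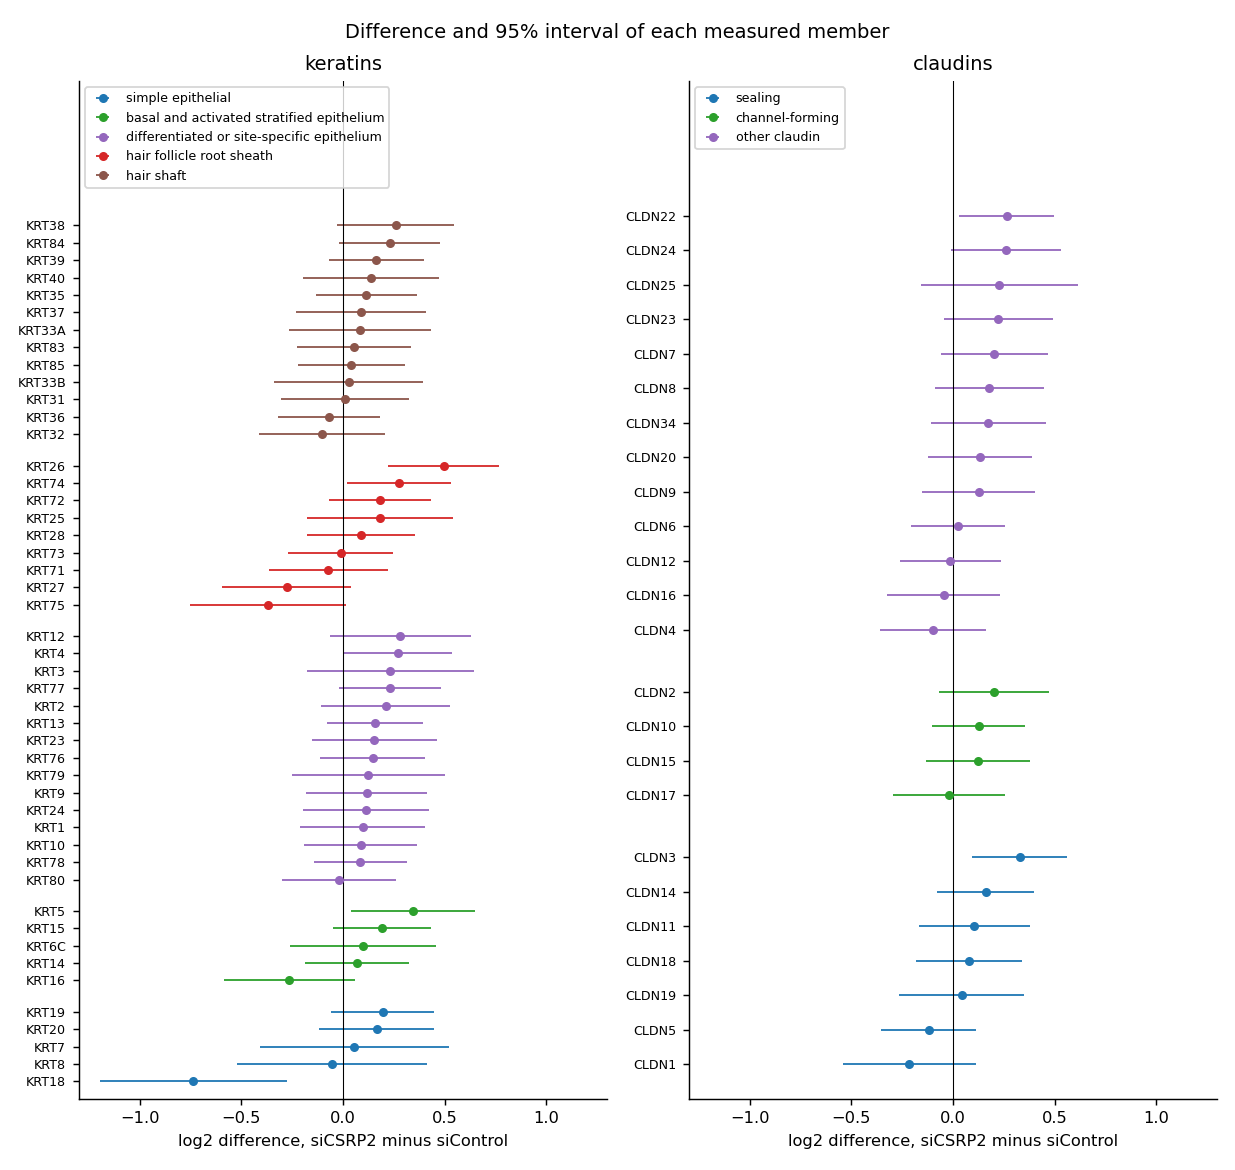
Log2 difference (siCSRP2 minus siControl, x axis) with its 95% interval for each of 47 keratins and 24 claudins, grouped by class. Most points lie just right of 0, and KRT18 at -0.74 and KRT26 at 0.50 mark the ends of the keratin range.

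Among sealing claudins, CLDN3 was higher in siCSRP2 and CLDN1 was not separated. CLDN3, a barrier claudin of simple epithelia, measured 3.84, 3.89 and 3.74 on siControl arrays and 4.12, 4.13 and 4.21 on siCSRP2 arrays. The groups were apart by more than the spread within either of them, and CLDN3 was higher in 3 of 3 pairs. The mean went from 3.82 ± 0.075 to 4.15 ± 0.048 (SD, n = 3), 1.26-fold, with a difference of 0.33 (SE 0.10, 95% interval 0.09 to 0.56) that did not pass over all genes (limma adjusted p = 0.0919, and 0.0857 with the block). It passed after quantile normalization (0.48, adjusted p = 0.0337) and cyclic loess (0.47, 0.0375) and did not after median centring (0.24, 0.196) or under the trended, robust eBayes (0.33, 0.215).

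CLDN1, the main sealing claudin of skin, measured 4.94, 4.97 and 5.37 on siControl arrays and 4.73, 4.97 and 4.93 on siCSRP2 arrays. Apart from siControl 3 at the top and siCSRP2 1 at the bottom these values lie close together, and the difference was -0.22 (SE 0.14, 95% interval -0.54 to 0.11, limma adjusted p = 0.405). The other claudins whose low level defines the claudin-low class stayed below the median gene. CLDN4 was at 2.57 ± 0.11 and 2.47 ± 0.11, and CLDN7 at 2.65 ± 0.15 and 2.85 ± 0.06 (SD, n = 3). Neither passed. CLDN5, the claudin of endothelial barriers, had groups that did not overlap (2.45 ± 0.09 and 2.33 ± 0.02) at a difference of -0.12.

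Of the 4 channel-forming claudins none passed. CLDN2, which forms a channel for cations and water, was at 3.04 ± 0.11 and 3.24 ± 0.14 (SD, n = 3), and CLDN15 at 2.96 ± 0.04 and 3.08 ± 0.14. The 13 other claudins ran from -0.10 (CLDN4) to 0.26 (CLDN22), with 10 above 0. CLDN22 measured 2.55, 2.39 and 2.45 on siControl arrays and 2.77, 2.72 and 2.69 on siCSRP2 arrays, and its neighbour in the genome CLDN24 had 2.37, 2.30 and 2.26 against 2.77, 2.47 and 2.48. Both had groups apart and did not pass (limma adjusted p = 0.158 and 0.231). CLDN12, a claudin that lacks the usual PDZ-binding end, was at 3.61 ± 0.12 and 3.60 ± 0.05.

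The promoters of KRT26, the keratin that rose, and CLDN3, the claudin that passed after rescaling, are shown with the E-box marked that SNAI2 and related repressors are known to bind. Each is RefSeq's window on GRCh38.p14 from 250 bases before to 50 bases after the gene's start, on the minus strand (KRT26 chr17:40772152-40772451, CLDN3 chr7:73770221-73770520), with the E-box CAGGTG, or CACCTG where it is read on the other strand, in capitals.
KRT26: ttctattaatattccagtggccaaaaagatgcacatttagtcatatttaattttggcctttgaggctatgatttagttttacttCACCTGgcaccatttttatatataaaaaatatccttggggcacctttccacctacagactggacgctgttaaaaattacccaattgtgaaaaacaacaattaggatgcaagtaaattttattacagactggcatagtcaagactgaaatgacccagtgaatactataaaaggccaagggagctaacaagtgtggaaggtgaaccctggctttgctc
CLDN3: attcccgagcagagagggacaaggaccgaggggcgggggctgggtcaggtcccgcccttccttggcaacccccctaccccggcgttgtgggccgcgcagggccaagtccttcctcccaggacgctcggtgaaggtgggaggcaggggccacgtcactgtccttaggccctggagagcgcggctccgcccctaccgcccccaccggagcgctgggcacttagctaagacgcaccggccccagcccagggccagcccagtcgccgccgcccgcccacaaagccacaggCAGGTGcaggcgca
Each window holds 1 such E-box, from base 85 in KRT26 and from base 287, past the gene's start, in CLDN3. Promoter windows were at hand for 51 of the 71 members, and 15 of them (29.4%) hold CAGGTG on either strand, beside 20.6% of all 35116 windows. A match of 6 letters is no evidence of binding, and no binding was measured here.

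The small positive differences were common to both families. 37 of 47 keratins and 18 of 24 claudins had a difference above 0, with medians of 0.11 and 0.13, beside 53.1% of all genes and a median of 0.02. Among all genes below the median level, 71.3% had a difference above 0 with a median of 0.08, and among members below that level the share was 83.6% with a median of 0.12. The keratin median per array was 2.46, 2.44 and 2.51 in siControl and 2.62, 2.60 and 2.66 in siCSRP2, so each siCSRP2 array lay above each siControl array. The claudin median was 2.56, 2.54 and 2.55 in siControl and 2.77, 2.75 and 2.75 in siCSRP2. All genes below the median level were apart too, with medians of 2.53, 2.50 and 2.56 in siControl and 2.62, 2.59 and 2.61 in siCSRP2. The medians over all probe sets of an array were also higher in siCSRP2 (2.80 to 2.82 against 2.70 to 2.76), and their part in these shifts was not tested. After quantile normalization the family medians were 0.05 and 0.06 with 33 keratins and 16 claudins above 0, and after median centring 0.03 and 0.04 with 29 and 15.

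**Figure D3:**
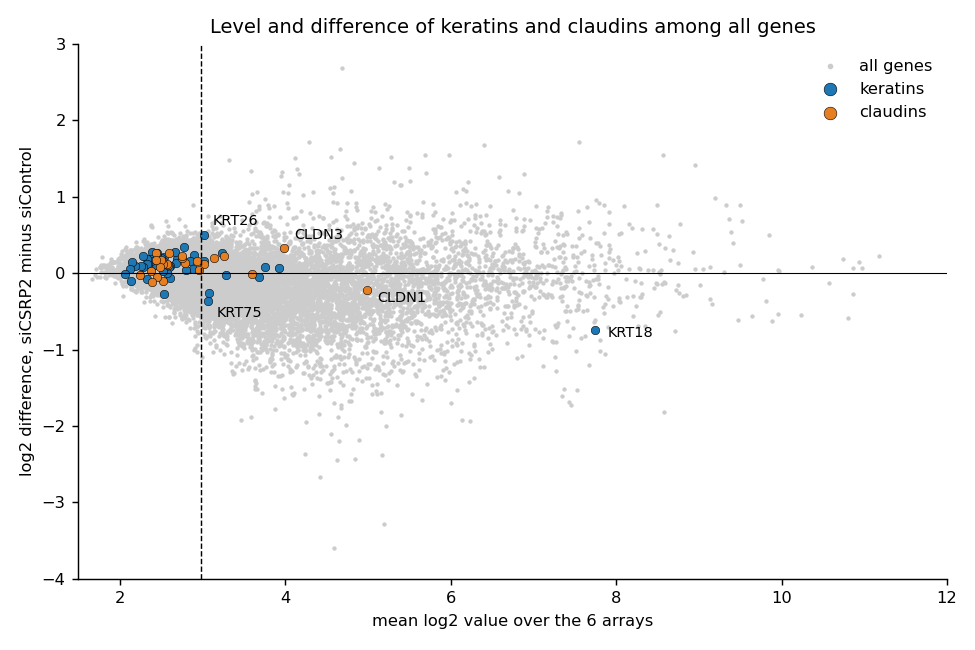
Log2 difference (y axis) against the mean log2 value over the 6 arrays (x axis) for all 14884 genes in grey, keratins in blue and claudins in orange, with a dashed line at the median gene level of 2.99. Most members sit left of the line and slightly above 0, and KRT18 lies alone among them at 7.74.

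Genes that anchor, assemble or regulate keratins and claudins were examined from 7 lists chosen by role, with 85 of 125 listed genes measured. Earlier results of these data were known when the lists were chosen, so a share called in a list is no independent evidence of an excess. No gene of these lists rose, and 8 fell (13 with the replicate block). That is 9.41% of the 85 beside 7.34% of all genes called, and 15.3% beside 15.8% with the block, so the lists together lie near the background. None of the 20 measured tight junction partners passed in limma's fit, 3 of them were at an unadjusted p under 0.05, and the list median was -0.01. That list holds the scaffold TJP1, which ties claudins to actin, and the membrane protein OCLN.

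Of 15 measured desmosome genes, which anchor keratin filaments at cell contacts, 1 fell and 14 did not pass, with a list median of 0.10. The share called, 6.67%, is near the 7.34% of all genes. DSG2, the desmosomal cadherin of simple epithelia, measured 6.80, 6.50 and 6.78 on siControl arrays and 5.49, 5.43 and 5.70 on siCSRP2 arrays. All siCSRP2 values were lower by at least the whole range of either group, and DSG2 fell 2.22-fold (log2 difference -1.15, SE 0.13, limma adjusted p = 0.00482), passing in each of the 6 fits that left out 1 array. Of 5 hemidesmosome and plakin genes none passed, 1 of them at an unadjusted p under 0.05, and the linker plectin, PLEC, fell with the block (-0.65, limma adjusted p = 0.0556 without and 0.031 with it). PLEC also passed without the block after median centring (0.0342), under either filter on dim genes (0.0477 and 0.0408) and with array weights (0.0431), and did not pass with the block after quantile normalization (-0.48, 0.0923).

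Of 10 other intermediate filament proteins measured, 2 fell and 8 did not pass, 20.0% called beside 7.34% of all genes. Those that fell were vimentin, VIM, the type III filament of mesenchymal cells (1.77-fold, difference -0.82), and lamin A/C, LMNA (1.55-fold, -0.63), and LMNB1 (-1.13) and LMNB2 (-0.56) fell with the block. GFAP, NES and PRPH had differences above 0, and the list median was -0.10. VIM went from 7.98, 8.17 and 7.97 on siControl arrays to 7.21, 7.45 and 6.98 on siCSRP2 arrays. The within-array ratio of KRT18, again by probe set 16938654 only, to VIM was 0.41, 0.11 and -0.31 (log2) in siControl and 0.39, -0.12 and 0.20 in siCSRP2. Groups of this ratio overlapped (difference 0.09, exact two-sided p = 0.8, adjusted over 3 ratios 0.8).

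Among 10 repressors of epithelial genes 2 fell (20.0%), and the list median was -0.35. Of these 10, 9 lay above the median gene level, where 14.1% of all genes were called (29.7% with the block) and the median difference was -0.15. SNAI2, a zinc finger factor that binds E-boxes, measured 7.95, 8.0 and 7.24 on siControl arrays and 6.96, 6.65 and 5.93 on siCSRP2 arrays, 2.32-fold lower (difference -1.21, limma adjusted p = 0.0394). Its call was lost after quantile normalization (0.064) and cyclic loess (0.0603). TCF4, an E-box binding helix-loop-helix factor, fell 1.62-fold (-0.70, 0.0315), and TWIST2 (-0.80) and PRRX1 (-0.44) fell with the block. PRRX1 did not pass with the block after quantile normalization (-0.29, 0.156). ZEB1 differed by -0.09 and did not pass. Of 15 epithelial transcription factors 1 fell, TFAP2C (-0.50, limma adjusted p = 0.0375), and 14 did not pass, with a median of 0.13.

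Of 10 measured keratin binding and turnover genes 2 fell (20.0%, beside 6.54% of all genes that were called lower), with a median of 0.02. HSPB1, a small heat shock protein that associates with keratin filaments, fell 2.88-fold (difference -1.52, limma adjusted p = 0.00992), and TRADD, a death receptor adaptor that can bind KRT18, fell 1.97-fold (-0.98, 0.0203). HSPB1 lost its call without siControl 2 (adjusted p = 0.0591). TRADD, SNAI2, TCF4, TFAP2C, LMNA and VIM lost theirs without siControl 1, without siControl 2 or without siCSRP2 3, and all of these but VIM also without siCSRP2 2. TCF4 and TFAP2C lost theirs without siCSRP2 1 as well, and each gene passed without siControl 3.

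**Figure D4:**
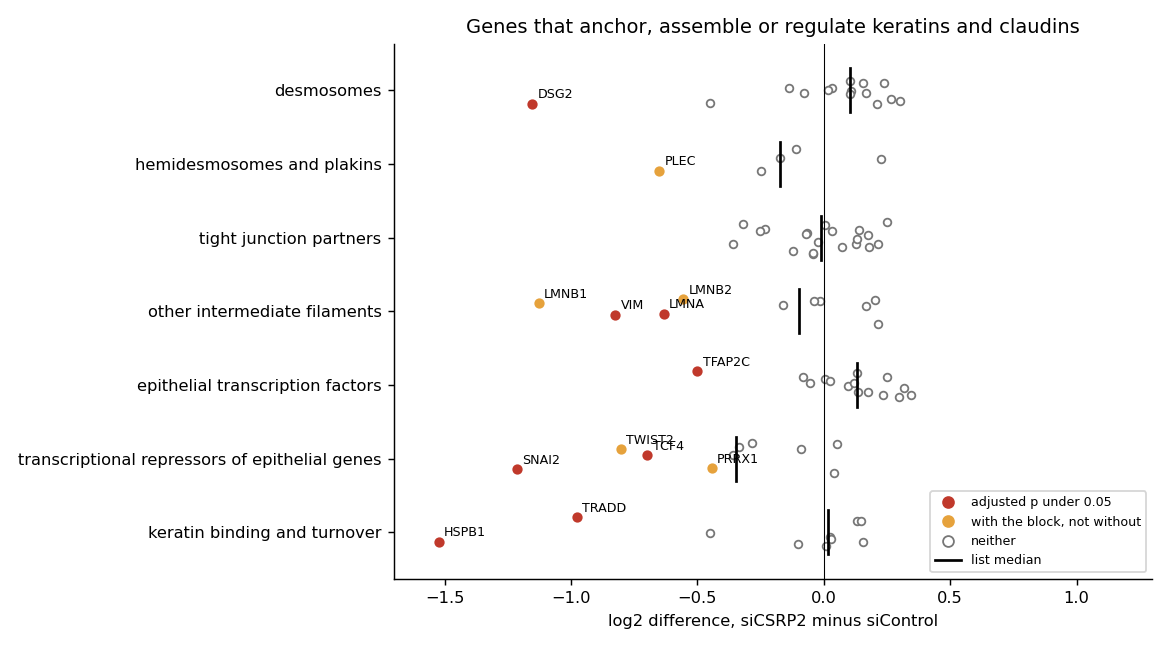
Log2 difference (siCSRP2 minus siControl, x axis) of each measured gene in 7 lists, with points spread vertically for legibility and a black bar at each list's median. Filled red points passed limma's test over all genes, orange points did not pass that test and passed with the replicate block, and all of these lie left of 0.

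KRT18, KRT26 and CLDN3 differed in how far their calls depended on the processing. KRT18 kept a negative difference throughout, from -0.97 to -0.33. It passed with the block, the array weights, median centring or the dimmest 50% of genes left out. It did not pass after quantile normalization (-0.66, limma adjusted p = 0.109), cyclic loess (-0.67, 0.103) or averaging its probe sets (-0.53, 0.103). Nor did it pass with the dimmest 25% left out (limma adjusted p = 0.052) or the trended, robust eBayes (0.0564). KRT26 kept a positive difference of 0.41 to 0.54. CLDN3 kept one of 0.24 to 0.48.

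**Figure D5:**
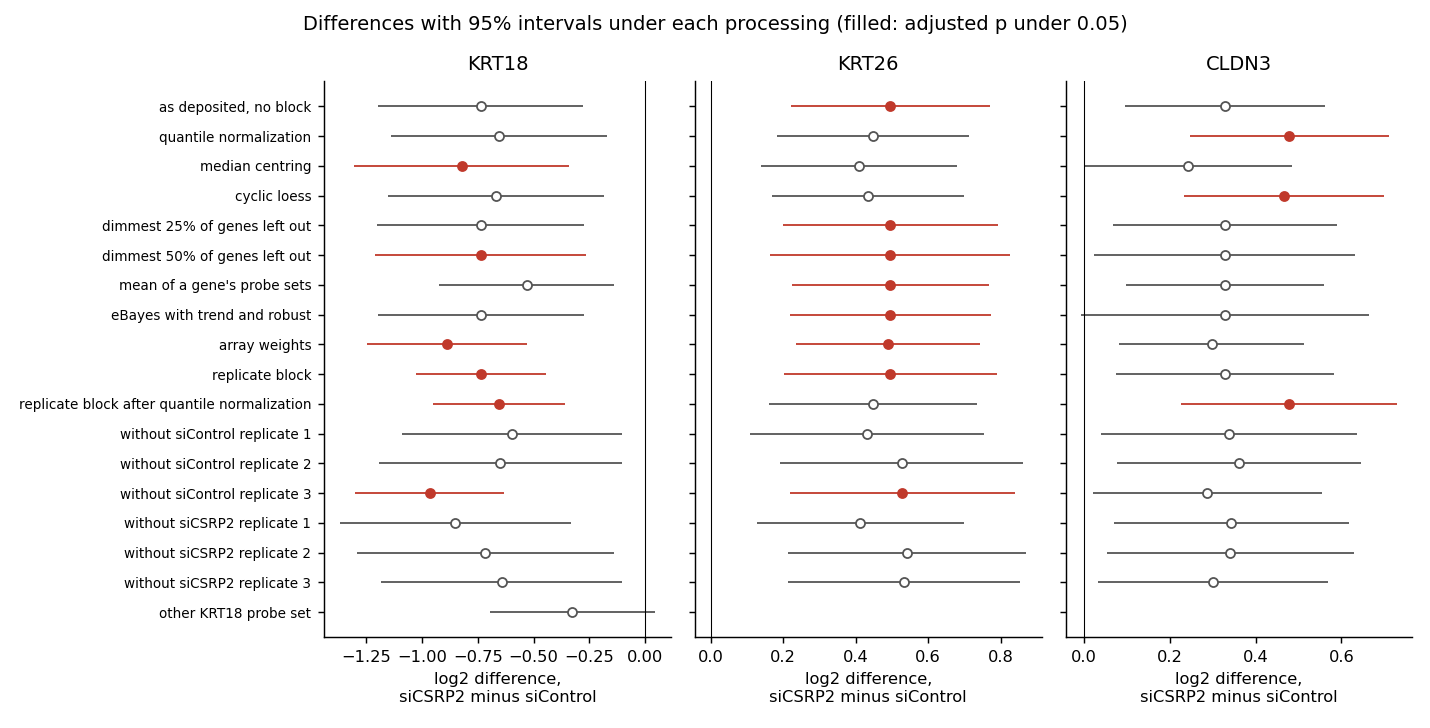
Log2 difference with its 95% interval (x axis) for KRT18, KRT26 and CLDN3 under each processing and with each array left out. Filled red points passed adjusted p 0.05, and no point crosses 0, although the intervals of the other KRT18 probe set and of CLDN3 under the trended, robust eBayes do.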

How the data were processed

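Each of 6 HuGene 2.0 arrays was hybridised with labelled cDNA made from total RNA of Hs578T cells. The deposited values are on a log2 scale, 1 per probe set. Partek is named in the submitters' processing notes, without a version, and the background correction, the normalization and the build are unstated in the labels and headers used. Of 53617 probe sets 16098 had 1 gene symbol, 0 had several and 37519 were unnamed, and all 16098 matched RefSeq (GRCh38.p14). Each of 14884 genes was represented by its brightest probe set, by the mean of the 6 arrays. No dim gene was left out.

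Differences (siCSRP2 minus siControl) were fitted with limma 3.58.1 in R 4.3.3 on the deposited values, with p-values adjusted by Benjamini-Hochberg over all genes and a threshold of 0.05. The fit was tested on simulated data. Arrays of equal replicate number deviated together (r of 0.187 to 0.321, against -0.256 to 0.052 for unequal numbers). The number was therefore treated as a pairing in the fits with the replicate block, and not in the main fit. That pairing was chosen from these same values, since no label states it, and p-values with the block depend on it. Deviations within a group cancel out, so these correlations are not independent of each other. Alternatives were the replicate block, quantile normalization, median centring, cyclic loess, filters on the dimmest 25% and 50% of genes, the mean of a gene's probe sets, a trended and robust eBayes, array weights, and leaving out each array. The other KRT18 probe set and the 3 within-array ratios were added after seeing the data. The number of arrays limits the precision. Members, gene lists and roles were chosen with earlier results of these data known. Genes were named by a rule: CSRP2, KRT18 and KRT8, members past the threshold with or without the block, the 10 brightest of each family, the 4 largest rises and 4 largest falls of each, CLDN3, CLDN4 and CLDN7, up to 4 genes per partner list past the threshold in either fit, and cell type markers. KRT32, KRT6C, KRT7, KRT73, GFAP, NES, PRPH, OCLN and TJP1 lie outside it and were picked with their values already seen.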

Additional observations from a re-analysis of the deposited data

How the results depend on the processing

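The 1093 genes called became 2924 with array weights, 2348 with the replicate block and 2010 with the block after quantile normalization, and 91 to 2620 when 1 array was left out (91 without siControl 2, 2620 without siControl 3). Falls made up 89.1% of calls as deposited, 76.0% after quantile normalization and 77.7% after cyclic loess. The 1 keratin called became 0 after quantile normalization or cyclic loess, 2 with the dimmest 50% of genes left out, 3 with array weights, 2 with the block (KRT26 higher, KRT18 lower), 2 with the block after quantile normalization (KRT18 and KRT75, both lower), and 0 to 2 without 1 array. The 0 claudins called became 1, CLDN3, after quantile normalization, cyclic loess or the block after quantile normalization, and stayed 0 without any 1 array. The 8 partner genes called became 13 after median centring, 15 with array weights and 13 with the block, and 1 to 14 without 1 array. KRT18 passed at -0.82 after median centring, -0.74 with the dimmest 50% left out or with the block, -0.89 with array weights and -0.66 with the block after quantile normalization, and ran from -0.97 to -0.60 without 1 array. Of the fits without 1 array, KRT18 passed only in that without siControl 3.

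Among the genes followed singly through the settings, signs turned for 6 near 0. Other members were not followed singly. After median centring, keratins with a difference above 0 went from 37 to 29 and claudins from 18 to 15. CLDN12 was 0.0657 after quantile normalization, with or without the block, 0.0673 after cyclic loess, and -0.0760 to 0.0419 without 1 array. CLDN19 was -0.0268 after quantile normalization, with or without the block, -0.0291 after cyclic loess, -0.0440 after median centring, and -0.0552 to 0.1349 without 1 array. KRT8 was 0.0211 after quantile normalization, with or without the block, 0.0430 after cyclic loess, 0.0821 with array weights, and -0.20 to 0.18 without 1 array. KRT14 was -0.0158 after median centring. Without 1 array CLDN16 ran from -0.11 to 0.0397 and KRT80 from -0.11 to 0.0388. The cause was not tested. Among the single genes followed, 542 values kept direction and side of the threshold, 34 gained the call, 37 lost it and 24 turned sign.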
